A study of Mus musculus with 4 samples.

Results

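Resting CD8 T cells were taken from 4 single-cell RNA-seq libraries of mouse lung immune cells by a rule on raw unique molecular identifier (UMI) counts, in which each UMI stands for 1 captured RNA molecule. A member had at least 200 detected genes, at most 10% of its UMIs from mitochondrial genes, at least 2 UMIs over the 3 CD3 genes Cd3d, Cd3e and Cd3g, at least 1 UMI of Cd8b1 (the beta chain of the CD8 coreceptor), and no UMI of the 8 genes Cd4, Foxp3, Il2rb, Ccl5, Trdc, Rag1, Dntt and Cd79a. The members were thus chosen by the measured counts of these genes, and the levels of these genes are no finding. The rule found 1025 cells among 15181 that passed the filter on genes and mitochondrial share, out of 16528 barcodes.

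The libraries came from live CD45.2+ cells sorted from the lungs of C57BL/6J mice aged 10 weeks. Libraries WT 1 and WT 2 were from mice of genotype Lmna-flox/flox Vav1-cre-/-, and knockout 1 and knockout 2 from mice of genotype Lmna-flox/flox Vav1-cre+/-. Both groups carried the floxed Lmna alleles. Vav1-cre is active in blood-forming cells and their descendants, so that deletion is not limited to T cells, and the loss of Lmna and the presence of Cre cannot be told apart. The comparison of the genotypes asks how loss of Lmna changes the transcripts of lung immune cells. The gene encodes the A-type lamins, which form filaments under the nuclear membrane.

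Naive and other resting CD8 T cells circulate between blood, tissue and lymph nodes before they meet antigen. They are held in quiescence and in circulation by transcription factors such as Lef1, Tcf7 and Klf2 and by homing receptors such as Ccr7 and S1pr1. During development in the thymus, Runx3 directs T cells that recognise MHC class I towards the CD8 lineage, and Zbtb7b (ThPOK) directs those that recognise MHC class II towards the CD4 lineage. Runx factors bind DNA at a short core motif.

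WT 1 gave 314 members and WT 2 gave 238, while knockout 1 gave 269 and knockout 2 gave 204. The labels give 2 mice and 2 libraries per genotype, and each library is taken as 1 mouse. Total counts were 21780914 to 27045250 UMIs per library. The members' summed counts came to 1181236 to 1945970 UMIs per library, with medians of 5047 to 5791.5 UMIs per cell. No member barcode was shared between any 2 libraries. WT 2 stood apart in another T cell population: it held 256 cells with Cd8b1 and with Rag1 or Dntt, genes of immature T cells, against 14, 12 and 23 in WT 1, knockout 1 and knockout 2. The rule keeps those cells out, but 9 members of WT 2 still held a UMI of 1 of 4 precursor genes, among them Rag2, Ptcra and Arpp21, against 0, 1 and 0 in the others. Cells with at least 2 UMIs over 8 genes of B cells and myeloid cells (among them Cd79b, Ms4a1, Lyz2, Fcer1g, Tyrobp, Csf1r and C1qa) are called possible doublets below. They made up 17.2%, 18.1%, 10.8% and 16.2% of the members of WT 1, WT 2, knockout 1 and knockout 2, and several results are also given without them. Fcer1g and Tyrobp were also listed as NK cell markers, and whether every cell so marked was a doublet was not tested.

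The identity genes that the rule did not use followed the label. A UMI of Cd8a, the alpha chain of CD8, was found in 85.4%, 88.7%, 85.1% and 86.8% of members in WT 1, WT 2, knockout 1 and knockout 2. In B cells of the same libraries (Cd79a of at least 2 UMIs and no CD3 UMI), which should lack the gene, the share was 0.318% to 1.38% at medians of 3442 to 3921 UMIs. Dapl1, a gene of resting T cells, had a UMI in 58.0% to 66.2% of members and in 0.203% to 0.519% of B cells. Lef1 had a UMI in 92.2% to 95.9% of members and in 4.38% to 6.22% of B cells. Ccr7 had a UMI in 89.1% to 93.1% of members and in 75.9% to 79.8% of B cells, which also express it. Cd44, which rises on antigen-experienced T cells, had a UMI in 6.37% to 10.0% of members, and in 2.92% to 6.25% once possible doublets were left out.

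**Figure D1:**
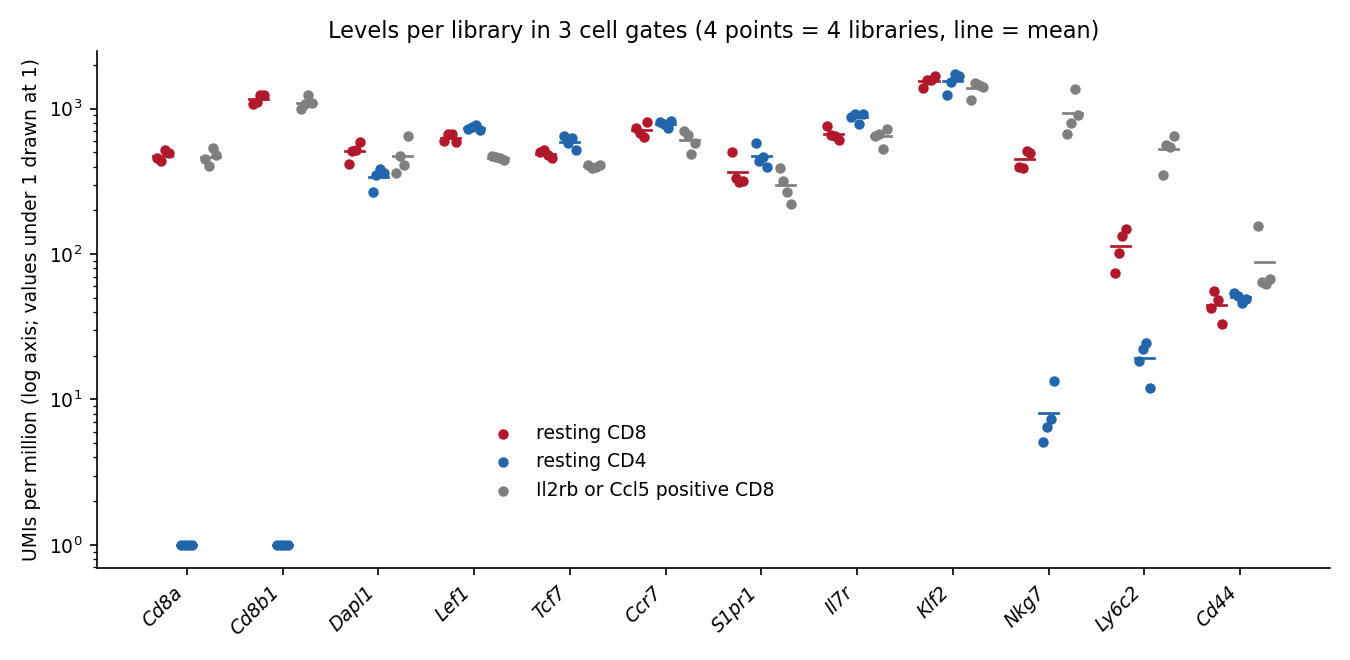
Levels of identity, homing and effector genes per library, as counts per 1000000 UMIs (CPM) on a log axis, in resting CD8 cells (red), resting CD4 cells (blue) and CD8 cells with Il2rb or Ccl5 (grey). Each point is 1 library and each line the mean of 4. Cd8a and Cd8b1 are 0 in the CD4 cells by construction and are drawn at 1. Nkg7 lies between 392 and 513 in resting CD8 cells and between 5.14 and 13.4 in resting CD4 cells.

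The edge of the rule was less pure than its middle. Members with exactly 1 UMI of Cd8b1 numbered 55, and only 14.3%, 42.9%, 38.9% and 31.2% of them in WT 1, WT 2, knockout 1 and knockout 2 had a UMI of Cd8a. Just outside, 635 cells met every other condition but had no Cd8b1, and 13 of these had Cd8a. Only 2 members had a CD3 sum of exactly 2.

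Markers of other cell types were present among the members. Possible doublets are defined in part by B cell and myeloid markers, so that part of any drop in such sums without them follows from the definition. The summed level of 14 myeloid markers was 1887, 3192, 2558 and 1846 counts per 1000000 UMIs of the summed cells (CPM) in WT 1, WT 2, knockout 1 and knockout 2, and 157 to 171 without possible doublets. Members with 10 or more Lyz2 UMIs were 3.35% to 4.20% of a library's members and held 92.8% to 96.9% of its Lyz2 UMIs. A sum over 12 epithelial, endothelial and stromal markers was 2592 in knockout 1, against 131 to 168 in the other 3 libraries, and 187 there without possible doublets. Thymocyte markers summed to 718 to 874 over 22 genes, with Ptcra and Cplx1 at 0, while 2 of the 10 gamma-delta T cell markers, Trdv4 and Il17a, were at 0. A sum over 10 neutrophil markers was 846, 309, 782 and 1477, and 78.3 to 102 without possible doublets, and 16 B cell markers summed to 1261 to 1607 and to 387 to 1330, the latter value being that of WT 2. The thymocyte sum was 711 to 896 without possible doublets. In resting CD4 cells it was 566 to 593, and in the WT 2 cells with Cd8b1 and with Rag1 or Dntt it was 7728. The thymocyte list holds Ccr9 and Themis, which were higher in CD8 than in CD4 cells in the comparison that follows. Ighm, an immunoglobulin RNA, had a UMI in 72.0% to 76.5% of members.

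Several of the genes that set resting CD8 cells apart from resting CD4 cells carry the core Runx motif TGTGGT, or ACCACA on the other strand, in the 250 bases before their start. The promoter sequences are from RefSeq, build GRCm38.p6, and matched 420 of the 544 genes found higher in CD8 cells and 471 of the 594 found lower in the comparison that follows. The motif was present before 84 of the former, which is 20%, and before 13.8% of the latter, 13.0% of the 6470 matched genes tested and 15.9% of all 27025 genes of the table, and these shares were not tested. Among the 12 named genes most raised by fold, 4 of the 9 matched had the motif. Among the 12 most lowered, 2 of the 7 matched had it. A match describes letters in the window, not a bound site. The stretches of 50 bases below hold the motif in capitals for Nkg7, Adgrg5, Ggt1 and Cst7, which were among the genes most raised in CD8 cells, for Runx3 itself, and for Zbtb7b, which was lower. They are shown because they let the motif be compared across genes that differed in opposite directions. All are written 5′ to 3′ along the gene's own strand.
Nkg7 (chr7:43437023-43437072, plus strand): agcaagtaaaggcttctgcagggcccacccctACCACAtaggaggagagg
Adgrg5 (chr8:94923540-94923589, plus strand): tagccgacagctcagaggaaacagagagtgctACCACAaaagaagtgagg
Ggt1 (chr10:75573277-75573326, plus strand): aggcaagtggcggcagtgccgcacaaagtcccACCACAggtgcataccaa
Cst7 (chr2:150570195-150570244, plus strand): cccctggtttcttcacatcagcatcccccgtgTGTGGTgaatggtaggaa
Runx3 (chr4:135120487-135120536, plus strand): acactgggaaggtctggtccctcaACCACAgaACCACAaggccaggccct
Zbtb7b (chr3:89387743-89387792, minus strand): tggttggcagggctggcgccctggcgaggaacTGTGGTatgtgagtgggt

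The nearest motif began 83 bases before the annotated start of Nkg7, 122 before Adgrg5, 186 before 1 of the starts of Ggt1, 188 before Cst7, 126 before 1 start of Runx3 and 89 before 1 start of Zbtb7b. Runx3 held 2 copies.

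Resting CD8 cells were compared with resting CD4 cells of the same libraries, chosen by the mirror rule (Cd4 of at least 1 UMI, Cd8a and Cd8b1 at 0, and the same exclusions), which gave 1044 cells. Counts were summed per library and gate, and the library was kept as a block. Among 8151 genes, 544 (6.67%) had more counts in CD8 cells and 594 (7.29%) had fewer at an adjusted p under 0.05 by edgeR's quasi-likelihood test. DESeq2 called 152 higher and 185 lower. Without possible doublets, edgeR called 482 (6.46%) higher and 541 (7.25%) lower of 7467. The genes with the largest folds included Nkg7, Cst7 and Klrd1, which are known from cytotoxic cells, while Gzma, a granzyme, did not pass (-0.18 ± 0.33, edgeR adjusted p 0.804).

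Among the granule genes, Nkg7, a granule membrane protein of cytotoxic lymphocytes, reached 395, 392, 513 and 494 counts per 1000000 UMIs (CPM) in the CD8 cells of WT 1, WT 2, knockout 1 and knockout 2. In the CD4 cells it was at 5.14, 6.44, 7.29 and 13.4. The 2 gates did not overlap, and the log2 fold change was 5.78 ± 0.11 (SE, n = 4 libraries, edgeR adjusted p 1.1e-97). Nkg7 UMIs were found in 76.0% to 80.7% of members, 0.5% to 2.65% of CD4 cells and 1% to 2.07% of B cells. Ctsw, a cathepsin of cytotoxic cells, was at 137, 153, 145 and 193 in CD8 cells and at 20.5, 17.5, 29.2 and 29.7 in CD4 cells. Cst7, which encodes cystatin F, an inhibitor of granule proteases, differed by 3.15 ± 0.19 (log2, SE). Prf1, the pore-forming perforin, differed less, by 0.74 ± 0.18. Perforin was low in both gates, at 26.2 to 44.5 CPM in CD8 cells and 17.7 to 21.2 in CD4 cells.

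The receptors Itgae, Ccr9 and Klrd1 were among the 12 genes with the largest folds. Itgae, the CD103 integrin chain that binds E-cadherin, was at 69.9, 91.1, 74.0 and 77.9 CPM in the CD8 cells, while 3 of the 4 CD4 sums held none and WT 1 was at 0.571, which is 1 UMI, so that the fitted log2 fold change of 8.15 depends on the prior count and is no bound. Its UMIs were found in 26.4% to 37.4% of members. Ccr9, the receptor for the gut chemokine Ccl25, was at 158, 196, 123 and 138 in CD8 cells and at 1.14, 16.6, 0.810 and 0.707 in CD4 cells. The high CD4 value was that of WT 2, the library with immature T cells, which express Ccr9, and the share of those cells in this value was not tested. The Ccr9 call (log2 fold change 5.20 ± 0.56, edgeR adjusted p 0.018) was lost without knockout 2, at an adjusted p of 0.0878. Klrd1, the CD94 chain of inhibitory NK receptors, was 233, 256, 169 and 230 in CD8 cells and 20.5 to 36.4 in CD4 cells.

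The other genes most raised by fold were Adgrg5, an adhesion G protein-coupled receptor, Lcn4, a lipocalin, Fam241a, Cxxc5, a CXXC zinc finger protein, Ggt1, gamma-glutamyltransferase, Nedd4, a ubiquitin ligase, and Racgap1, a GTPase-activating protein of cell division. Their log2 fold changes ran from 3.01 for Racgap1 to 4.90 for Adgrg5. Fam241a had the highest counts of these, 261 to 333 in CD8 cells against 18.4 to 31.6 in CD4 cells.

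**Figure D2:**
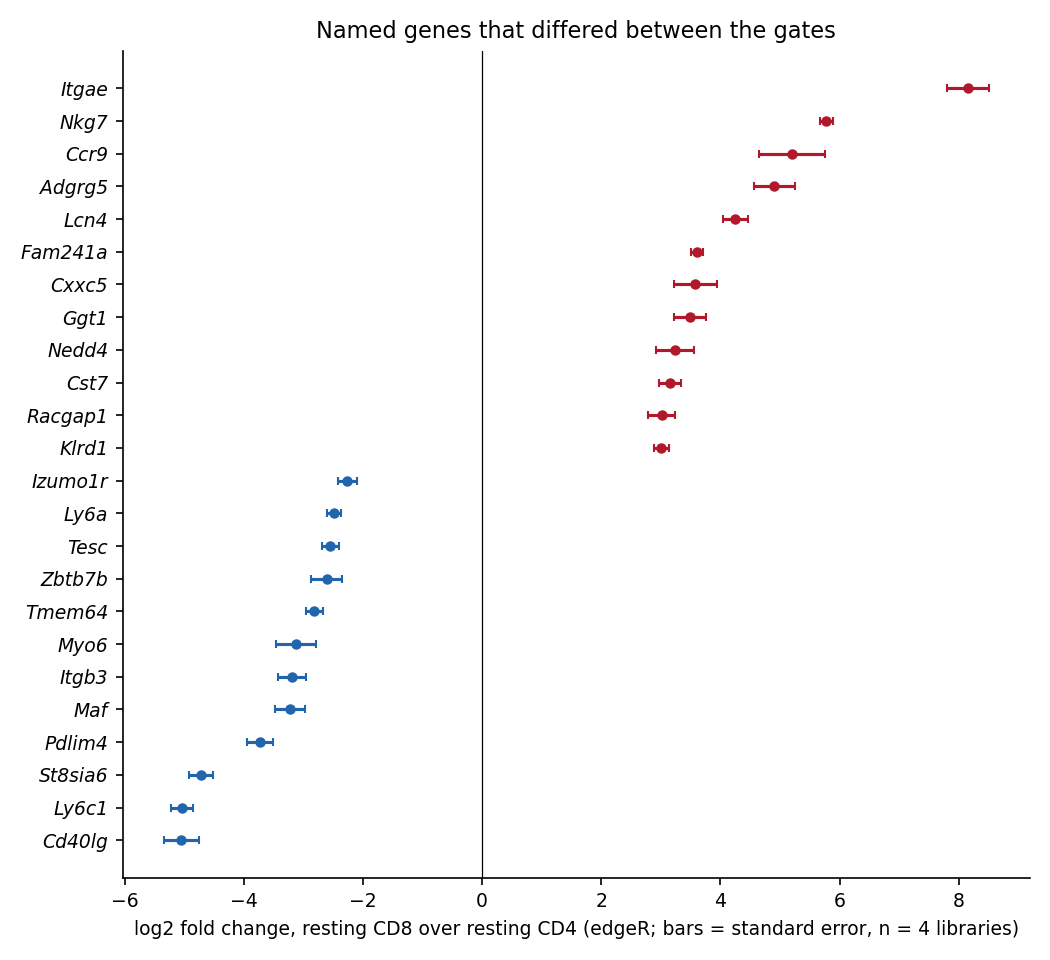
Log2 fold changes of resting CD8 over resting CD4 cells for the 24 genes named by the rule on fold change, 12 in each direction, with standard errors (n = 4 libraries, edgeR). Itgae is at 8.15 and Nkg7 at 5.78 on the higher side, and Cd40lg at -5.05 and Ly6c1 at -5.04 on the lower side.

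Genes of the helper lineage were lower. Cd40lg, the CD40 ligand with which helper T cells act on B cells, was at 1.54, 0.706, 0 and 4.23 CPM in the CD8 cells and at 65.6, 62.6, 33.2 and 41.0 in the CD4 cells. Zbtb7b was at 4.23 to 5.65 in CD8 cells and at 23 to 37.3 in CD4 cells, a log2 fold change of -2.61 ± 0.25, and -4.28 ± 0.36 without possible doublets. Of 8 tested helper and regulatory markers, 7 were lower, where 7.29% of all genes tested were. Among the 7 were Maf, Izumo1r (folate receptor 4) and Tnfrsf4 (OX40). Ikzf2 (Helios) was higher, by 0.72 ± 0.18. Ly6a (Sca-1) was at 17.5 to 32.9 in CD8 cells and at 93.9 to 167 in CD4 cells. On the log2 scale Ly6c1 differed by -5.04 ± 0.19 and Ly6c2 by 2.54 ± 0.16, or 5.18 ± 0.23 without possible doublets. These 2 genes are close copies: 43.0% of the 32-base words in the last 500 bases of Ly6c1 transcripts and 55.5% of those of Ly6c2 occur in another gene, so that their split is uncertain.

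Lineage regulators divided. Runx3 was at 202, 169, 144 and 168 in CD8 cells and at 46.2, 47.9, 68.0 and 55.9 in CD4 cells (log2 fold change 1.65 ± 0.11). Its relative Runx1 went the other way, with 49.1 to 59.1 in CD8 cells and 100 to 130 in CD4 cells (-1.20 ± 0.10). Of 15 lineage genes tested, Itgae, Runx3, Myb and Ikzf3 were higher and Runx1, Satb1, Zbtb7b, Bcl11b, Gata3, Tgfbr2 and Ikzf1 were lower. Over all genes tested, 6.67% were higher and 7.29% lower. Gata3, needed for CD4 lineage choice, differed by -1.15 ± 0.13.

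Quiescence and trafficking genes were mostly lower in CD8 cells, by small amounts. Of 24 tested, 3 were higher, among them Dapl1 and Klf3, and 16 lower, where 6.67% and 7.29% of all genes tested were. The median log2 fold change was -0.32 against 0.01 over all genes tested. Dapl1 was at 418, 511, 519 and 588 in CD8 cells and at 269, 349, 383 and 363 in CD4 cells (0.57 ± 0.06). Klf3, a quiescence factor, was at 470 to 549 in CD8 cells and differed by 0.27 ± 0.05. Lef1 differed by -0.24 ± 0.05, Tcf7 by -0.28 ± 0.05, S1pr1 by -0.37 ± 0.06 and Il7r, the IL-7 receptor chain, by -0.39 ± 0.05. Igfbp4, a binding protein of insulin-like growth factors, was at 102, 153, 231 and 192 in CD8 cells and at 450, 409, 664 and 702 in CD4 cells. Klf2, at 1383 to 1690 in CD8 cells, differed by 0.02 ± 0.04 and did not pass the test.

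T cell receptor signalling genes gave 3 higher and 9 lower of 21 tested, against 6.67% and 7.29% of all genes tested. Cd28, the costimulatory receptor, was at 203 to 263 in CD8 cells and 496 to 566 in CD4 cells (-1.17 ± 0.06), and Cd5, a negative regulator of receptor signalling, was at 81.7 to 97.4 and 176 to 225 (-1.20 ± 0.08). Ptpn22, a phosphatase that dampens the same signal, was higher by 0.91 ± 0.08, and Themis, an adaptor of receptor signalling, by 0.47 ± 0.08. Cytokine receptor and feedback genes gave 2 higher and 12 lower of 25, the 2 higher being near the share over all genes. Il4ra was at -1.02 ± 0.10 and Il6ra at -0.72 ± 0.08. Without possible doublets 11 of the 25 were lower and 0 higher by edgeR, with 1798 of all genes tested at an unadjusted p under 0.05.

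Homing and adhesion genes gave 4 higher and 8 lower of 22, with Selplg, the ligand of P-selectin, at 0.50 ± 0.06 and Gpr183, a receptor for oxysterols, at -1.26 ± 0.09. Immediate early genes gave 5 higher and 8 lower of 26, with Junb at -0.83 ± 0.05, and 3 higher and 11 lower of 22 without possible doublets. Interferon-stimulated genes gave 2 higher and 6 lower of 32, with Ifi27l2a at -0.78 ± 0.06. Of 33 actin and mechanosensing genes, Zyx (zyxin) was higher, by 0.94 ± 0.11, and 6 were lower, or 9 without possible doublets. Of 22 lamina and nuclear envelope genes 2 were higher and 1 lower, near the shares over all genes (6.67% and 7.29%). The higher ones were Man1a and Syne1 (nesprin-1), neither of them called by DESeq2 (adjusted p 0.288 and 0.85), and Syne1 did not pass without possible doublets (edgeR adjusted p 0.16). Tpr, a nuclear pore protein, was lower, by edgeR and by DESeq2.

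Antigen presentation genes of MHC class I gave 8 higher and 1 lower of 22, with a median log2 fold change of 0.15. H2-Q7 was higher by 0.40 ± 0.05, Psme1, a proteasome activator subunit, by 0.38 ± 0.06 and B2m, the light chain of class I molecules, by 0.19 ± 0.04. H2-Q6 and H2-Q7 share 58.4% and 20.1% of their 32-base words with other genes. Of 17 tested memory and effector genes 10 were higher and 4 lower, and 9 and 3 of 14 without possible doublets. The lower ones were Ly6a, Itgb1, S100a4 and S100a6, of which Itgb1 and S100a6 did not pass without possible doublets (edgeR adjusted p 0.123 and 0.103). Cd44 was at 42.7, 55.8, 48.0 and 33.0 in CD8 cells and at 46.2 to 54.2 in CD4 cells and did not pass. Without possible doublets the CD8 values were 10.0, 7.56, 12.5 and 5.48, and Cd44 was lower by 1.57 ± 0.24 (log2, edgeR adjusted p 1.4e-08). Of 13 myeloid markers, 6 were higher in CD8 cells. Without possible doublets, which are defined in part by such markers, 3 were tested and 0 were higher. Ribosomal protein genes gave 11 higher and 6 lower of 82, against 6.67% and 7.29% of all genes, and 40 higher and 2 lower without possible doublets, against 6.46% and 7.25%.

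The share of resting CD8 cells among kept cells was compared between genotypes. It was 7.97% in WT 1 (exact Clopper-Pearson 95% interval 7.14% to 8.86%), 6.13% in WT 2 (5.40% to 6.94%), 7.14% in knockout 1 (6.34% to 8.01%) and 5.68% in knockout 2 (4.95% to 6.49%). The intervals cover counting error only. The groups overlapped: the WT mean was 7.05% ± 1.3 (SD, n = 2) and the knockout mean 6.41% ± 1.03 (SD, n = 2), with an exact two-sided permutation p of 0.667. With 2 libraries against 2, that test cannot go below 0.33. Among T cells the shares were 24.6%, 16.8%, 20.4% and 18.8%. The low WT 2 value of that share has the immature T cells of that library in its denominator.

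**Figure D3:**
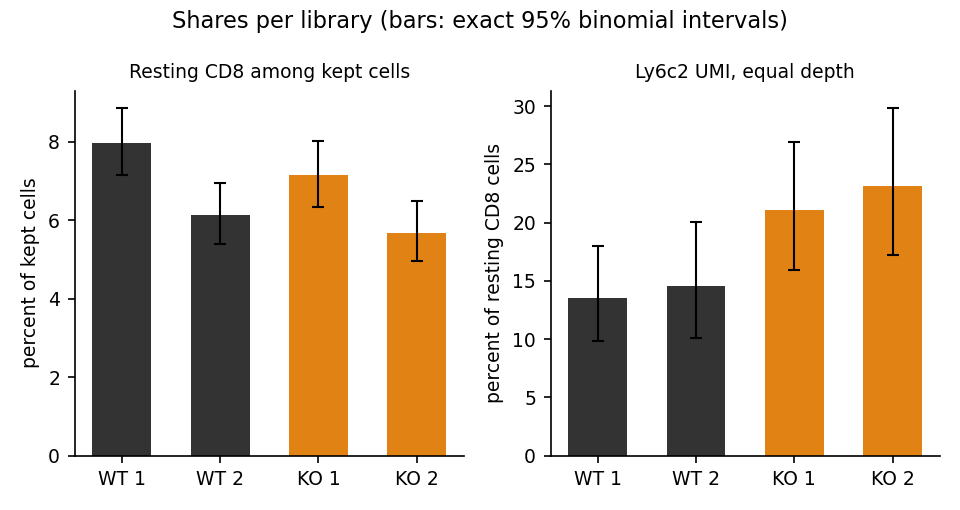
Shares per library with exact 95% binomial intervals, WT in dark grey and knockout (KO) in orange. The left panel shows members as a percent of kept cells, which runs from 5.68 to 7.97. The right panel shows the percent of members with a Ly6c2 UMI after every cell was thinned to 3810 UMIs, from 13.6 to 23.1.

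The knockout was then compared with WT within the members, to ask what loss of Lmna changes in these cells. Among 8348 genes, 3 (0.0359%) rose and 23 (0.276%) fell in the knockout at an adjusted p under 0.05 by edgeR. By where their UMIs lay, most were of 2 kinds: genes known from myeloid and dendritic cells, with few UMIs left without possible doublets, and housekeeping genes, many of them short, whose calls were also made without possible doublets.

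Lmna itself was nearly absent from resting CD8 cells of either genotype. Its UMIs numbered 26, 23, 5 and 1 in WT 1, WT 2, knockout 1 and knockout 2, and 18 of those in WT 1 and 16 of those in WT 2 came from 1 cell each. The log2 fold change was -2.69 ± 0.55 (edgeR adjusted p 0.04). Without possible doublets the counts were 3, 4, 1 and 1, at or near the floor of 3 counts, and the gene was not tested. The share of members with a Lmna UMI was 1.91%, 2.52%, 0.743% and 0.490%, against 1.38% to 4.88% in B cells over all libraries. The check of the labels by the deleted gene thus rests on few counts. The other lamina genes did not pass: Lmnb1 (lamin B1) was at 17.5, 26.1, 17.1 and 29.6 CPM, and Lbr, the lamin B receptor, at 151, 123, 129 and 134. Of 22 tested lamina and nuclear envelope genes, Lmna alone passed.

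Among the genes of the first kind, Il1b, the inflammatory cytokine, was at 154, 147, 293 and 456 CPM in WT 1, WT 2, knockout 1 and knockout 2, and at 20.7, 19.8, 30.9 and 29.6 without possible doublets, where it no longer passed (edgeR adjusted p 0.754). It was seen in 42, 33, 42 and 36 members, and the top 3 cells held 50% to 85.0% of its UMIs. Ier3, an early response gene, was at 3.08, 6.36, 19.9 and 25.4, with 79.3% and 83.3% of the knockout UMIs in 3 cells. All 18 and 25 UMIs of Hcar2, a receptor for hydroxybutyrate, in knockout 1 and knockout 2 were in 3 cells each.
On the lower side, Lpl (lipoprotein lipase) had 72, 54, 5 and 5 UMIs and 1, 1, 0 and 0 without possible doublets. Irf8 and Tcf4, transcription factors of dendritic cells, went from 56, 53, 14 and 14 and from 49, 35, 7 and 7 UMIs to 3, 1, 6 and 3 and to 14, 3, 0 and 5. Ear2, a ribonuclease of myeloid cells, went from 119, 110, 51 and 20 to 3, 2, 0 and 1.

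The housekeeping genes named here were called without possible doublets too. In that set 7512 genes were tested, of which 5 (0.0666%) were higher and 31 (0.413%) lower. Polr2l, a small subunit shared by the RNA polymerases, was at 64.9, 51.9, 9.18 and 14.2 CPM in WT 1, WT 2, knockout 1 and knockout 2. Its log2 fold change was -2.41 ± 0.29 (edgeR adjusted p 2.7e-07). Over all members, Polr2l was seen in 62, 29, 10 and 17 cells, with 25.6% to 42.5% of its UMIs in 3 cells, and Snrpg in 295, 209, 176 and 154. Atp5k, a subunit of ATP synthase, was at 189, 175, 64.3 and 92.1 (-1.29 ± 0.18). Smim27, a small membrane protein, was at 56.2, 55.7, 15.0 and 18.6 (-1.80 ± 0.27). In each of these genes both WT libraries lay above both knockout libraries. Such a separation over all members was a condition of naming these genes, so it is no separate result.

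Snrpg, a core protein of the spliceosome, was at 521, 420, 224 and 290, and Sec61g, a subunit of the ER translocon, at 316, 298, 166 and 199. Amd2, a copy of the polyamine synthesis gene Amd1, was at 42.1, 23.6, 6.68 and 8.77, but 96.8% of its 32-base words occur in another gene and its value is uncertain. Of 82 ribosomal protein genes 12 were lower by edgeR, and the list's median log2 fold change was 0.02. Among the 12, Rpl38 was at 5305, 3955, 1852 and 2266, Rps21 at 7559, 6451, 3350 and 4133, and Rpl41 at 6249, 5700, 3123 and 3518. When 1 library was left out, the calls of Snrpg and Sec61g were lost without knockout 1 (edgeR adjusted p 0.063 and 0.228) and that of Amd2 without WT 1 (edgeR adjusted p 0.106). Those of Polr2l, Atp5k, Smim27, Rpl38, Rps21 and Rpl41 passed in 4 of 4 such fits.

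Many of the genes that fell were short, or shared sequence with other genes. The median transcript length was 611 nt over the 31 genes that fell, against 2044.75 nt over all genes tested. Of the 31 genes 14 were under 600 nt, but over all 348 tested genes under 600 nt the median log2 fold change was -0.04. More than 10% of the 32-base words at the 3′ end occurred in another gene for 20 of the 31 (64.5%) and for 12.7% of the genes tested. The share of such words was 18.6% for Polr2l, 17.8% for Atp5k, 29.2% for Sec61g, 31.4% for Rpl38 and 0 for Smim27 and Snrpg, so that the first 4 values are uncertain to that extent. With the fold changes corrected for transcript length, an alternative added after seeing the data, 24 were lower and 3 higher. Polr2l was then at -2.47 ± 0.29. The part of read length, mapping or library preparation in these values was not tested.

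**Figure D4:**
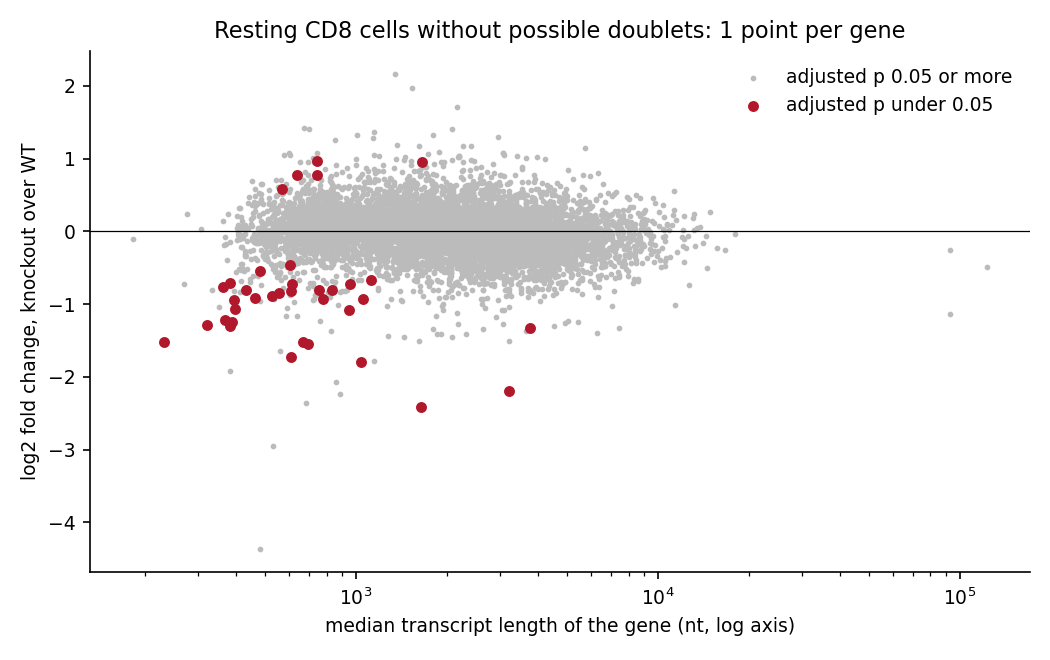
Log2 fold change, knockout over WT, against the median transcript length of the gene (nt, log axis) in members without possible doublets. Each point is 1 gene and red points have an adjusted p under 0.05. Of 31 red points below 0, 14 lie at lengths under 600 nt.

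The resting CD4 cells of the same libraries were taken with possible doublets kept. In them, Polr2l was at 62.2, 35.9, 13.0 and 12.7 CPM (-2.05 ± 0.29), Atp5k at 192, 130, 74.5 and 89.1 (-1.06 ± 0.19), and Rpl38 at 4893, 3599, 1591 and 2053 (-1.29 ± 0.18). The 2 comparisons share libraries and are not independent.

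The 5 genes that were higher without possible doublets included a marker of CD8 cell state. Ly6c2, a surface protein that rises on CD8 cells under interferon and homeostatic cytokine signals, was at 64.9, 85.9, 119 and 148 CPM in WT 1, WT 2, knockout 1 and knockout 2. Its log2 fold change was 0.78 ± 0.18 (edgeR adjusted p 0.017), and over all members it was 0.66 ± 0.17 (edgeR adjusted p 0.153). Fyb, an adaptor of integrin activation after receptor signals, was at 427, 425, 664 and 662 (0.59 ± 0.13, adjusted p 0.011 by edgeR). Igfbp4 was at 101, 136, 225 and 191 (0.78 ± 0.16), H2-DMa, a chaperone of MHC class II loading, at 34.1, 31.2, 59.3 and 73.4, and Guk1, guanylate kinase, at 36.8, 26.4, 76.8 and 52.6. None of the 5 passed by edgeR over all members, where the edgeR adjusted p was 0.061 for Fyb, 0.13 for Igfbp4 and 0.16 for Guk1. Over all members H2-DMa was at 0.50 ± 0.20 (edgeR adjusted p 0.599), against 0.95 ± 0.22 without possible doublets. DESeq2 over all members called Fyb (DESeq2 adjusted p 0.012) and gave Ly6c2, Igfbp4, H2-DMa and Guk1 no adjusted p. More than 10% of the 3′ 32-base words occurred in another gene for 2 of the 5, Ly6c2 (55.5%) and Igfbp4 (13.0%). The values of these 2 genes are uncertain to that extent. The median transcript length of the 5 was 742 nt, against 2044.75 nt over all genes tested.

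In each of these 5 genes both knockout libraries lay above both WT libraries. By edgeR each call was lost in 2 of the 4 fits that leave out 1 library: for Ly6c2 WT 1 or knockout 2 with adjusted p-values up to 0.636, and for Fyb either knockout library with values up to 0.204. The calls of Igfbp4 were lost without WT 1 or knockout 1, those of H2-DMa without WT 1 or knockout 2 and those of Guk1 without WT 2 or knockout 1. In all resting CD4 cells, with possible doublets kept, Ly6c2 was at 18.3, 22.1, 24.3 and 12 CPM (-0.23 ± 0.33). That set is unlike the CD8 set above, which leaves possible doublets out. The difference of the effects, 0.91 ± 0.31 over all members, did not pass (edgeR adjusted p 0.8). In all resting CD4 cells Fyb was at 569, 512, 820 and 805 (0.51 ± 0.12, edgeR adjusted p 0.069) and Igfbp4 differed by 0.60 ± 0.12 (edgeR adjusted p 0.023).

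**Figure D5:**
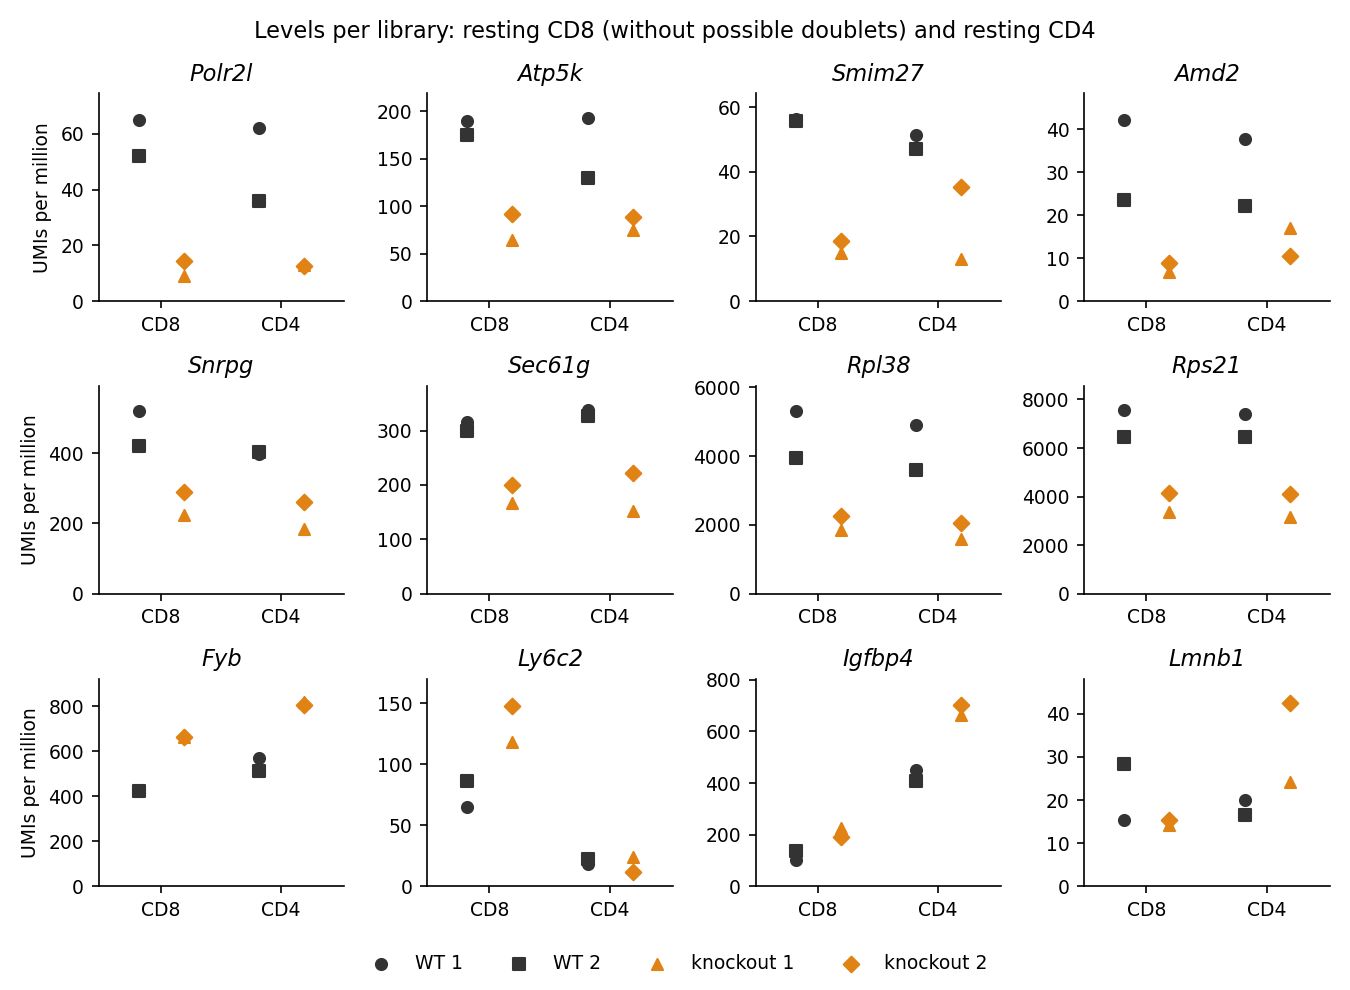
CPM per library in resting CD8 cells without possible doublets and in all resting CD4 cells, WT in dark grey and knockout in orange, for 12 genes. Polr2l, Atp5k, Smim27, Amd2, Snrpg, Sec61g, Rpl38 and Rps21 are lower in both knockout libraries of the CD8 panel. Fyb, Ly6c2 and Igfbp4 are higher there, and Lmnb1 lies between 14.2 and 28.3 CPM.

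Over all members, no gene passed by edgeR among 24 quiescence and trafficking genes, 22 receptor signalling genes, 14 lineage regulators, 18 memory and effector genes, 32 interferon-stimulated genes, 22 genes of MHC class I presentation, 24 cytokine receptor genes, 22 p53 targets, 11 BCL2 family genes or 33 actin and mechanosensing genes. Over all genes tested, 593 had an unadjusted p under 0.05. Median log2 fold changes of these lists ran from -0.12 for lineage regulators to 0.15 for MHC class I presentation. Ccr7 was at 736, 683, 640 and 814 and Lef1 at 601, 666, 665 and 592 CPM, each with overlapping groups. S1pr1, which lets T cells leave lymphoid organs, was at 506 in WT 1 and at 334, 314 and 319 in the other 3 libraries (-0.45 ± 0.17, edgeR adjusted p 0.601). A miss of the threshold with 2 libraries per group does not show that a gene was unchanged.

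The knockout effect was set against that in resting CD4 cells by an interaction term, with the library as a block. Among 8717 genes, the effect was higher in CD8 than in CD4 cells for 3 (0.0344%) and lower for 5 (0.0574%) by edgeR. These are given with the closing observations. Without possible doublets or cells with precursor genes, edgeR called 0 higher and 1 lower, with 413 genes at an unadjusted p under 0.05, and over all members DESeq2 called 0 of either, with 16.

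Because of the shared sequence of Ly6c2, the assignment of its UMIs is uncertain. Within the members, the cells with a Ly6c2 UMI were described apart. They made up 15.9%, 18.5%, 22.7% and 26.0% of members in WT 1, WT 2, knockout 1 and knockout 2. After every cell was thinned to 3810 UMIs, which left out 19, 25, 41 and 18 shallower cells, the shares were 13.6%, 14.6%, 21.1% and 23.1%. Without thinning, the share was 3.01% to 4.76% in B cells and 1.85% to 2.91% in CD4 cells. Among the thinned members, both knockout libraries lay above both WT libraries, although the exact intervals of WT 2 (10.1% to 20%) and knockout 1 (15.9% to 26.9%) overlapped. Cells chosen for a Ly6c2 UMI had more UMIs, with medians of 5950 to 6732 against 4745 to 5579, so the levels that follow are as CPM, over members without possible doublets and with no test.

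Members with a Ly6c2 UMI had higher levels of several genes. Dapl1 was at 867 ± 135 (SD, n = 4 libraries) in them and at 444 ± 44.5 in the others, Nkg7 at 597 ± 47.6 and 438 ± 68.4, Ctsw at 232 ± 53.5 and 142 ± 19.1, and Ahnak, a large scaffold protein, at 145 ± 26.7 and 69.2 ± 16.7. Eomes, a transcription factor of memory CD8 cells, was at 20 ± 6.21 and 7.45 ± 1.37. Cxcr3, a chemokine receptor of memory and effector cells, was at 8.36 ± 4.81 and listed at 0 in the others. By library its values were 3.98, 4.54, 13.4 and 11.5 in WT 1, WT 2, knockout 1 and knockout 2. The levels of Cxcr3 and Eomes rest on few UMIs, at or near the floor of 3 counts in the WT libraries. These 6 genes were higher in 4 of 4 libraries. Cd44 was too, with means of 14.6 and 7.33, but other memory and effector genes did not follow. Itga4 had means of 243 and 281 and Id2 of 170 and 208, each higher in 1 of 4 libraries. Cd7 had means of 99.3 and 129, Klrd1 of 259 and 238 and Ly6a of 23.9 and 18.3, each higher in 2 of 4. Gzmm and Tbx21, at low levels, were higher in 1 of 4.

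Other genes were lower in the same cells. Ccr9 was at 61.6 ± 5.31 and 184 ± 43.2, Tcf7 at 458 ± 29.3 and 536 ± 49.5, and S1pr1 at 320 ± 72.0 and 415 ± 110. Ccr7 was at 669 ± 41.0 and 783 ± 125. These 4 genes were lower in 4 of 4 libraries. S100a6 gave the opposite direction with possible doublets, 168 ± 48.1 against 64.6 ± 16.5, and was at 4.77 ± 1.34 against 15.9 ± 16.1 without them. Cd8a was at 505 ± 45.6 and 509 ± 39.4 and higher in 2 of 4 libraries.

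Cycling genes were seen together in few members. Those with at least 3 of 11 cycling genes numbered 1, 4, 1 and 0 in WT 1, WT 2, knockout 1 and knockout 2. Undetected UMIs limit this count, and it gives no share of cycling cells. At 3810 UMIs per cell, 5 or more of 37 interferon-stimulated genes were seen in 57.6%, 62.4%, 62.7% and 67.2% of members, with overlapping exact intervals of neighbouring libraries. Transcripts of the receptor constant gene Trbc2 without Trbc1 were found in 39.2%, 33.6%, 34.2% and 35.3% of members and both in 58.3% to 65.1%. The 2 constant genes are near copies, and the split between them is uncertain.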

How the data were processed

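Single-cell 3′ libraries of lung CD45.2+ cells from 2 WT and 2 knockout mice were analysed. The deposited matrices hold whole-number UMI counts per gene and barcode; per the submitters' processing notes, Cell Ranger 3.0.2, Seurat 3.0.0 and the build mm10 were used, and the options are not given in the sources used here. Cells were gated on raw counts, and no doublet caller was run; possible doublets were marked by 8 genes and left out as an alternative. Members, gene lists and tests were chosen with earlier results of these data known.

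UMI counts were summed per library and tested with edgeR 4.0.16 in R 4.3.3 (quasi-likelihood, robust, filterByExpr, TMM, Benjamini-Hochberg at 0.05), with DESeq2 1.42.0 as an alternative. The 12 genes of the rule and the 13 mitochondrial genes stayed in totals and out of tests. In the comparisons with CD4 cells, Cd8a, a gene of the CD4 rule, was left out of tests too. CPM are counts per 1000000 UMIs of the summed cells. Standard errors are the size of the log2 fold change over the square root of F. Replicate numbers name the libraries only: same-numbered libraries' deviations from their group means correlated at 0.029 over genes. Replicates differed by more than sampling noise (chi-square per degree of freedom 3.2 and 2.51).

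Named genes were a fixed set of identity and lamina genes and, for the knockout, up to 10 genes per direction by p with groups that did not overlap and at least 20 CPM. For CD8 against CD4 they were the 12 highest and 12 lowest folds past the threshold. These also needed at least 20 CPM in the higher gate and the same sign in all 4 libraries. For the difference of effects they were the 4 smallest p per direction. Up to 3 genes per list by p were named as well. Ribosomal genes were left out of these rankings. H2-DMa, Guk1, Siglech, Mt1, the ribosomal genes and further members of lists were chosen after their values were seen, as were the length correction and the removal of doublets together with precursor cells or a library. Shared 3′ sequence was counted in 32-base words against GENCODE M21 transcripts. A few genes of the lists and marker sets are not reported here by name.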

Additional observations from a re-analysis of the deposited data

Results flagged for a closer look

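The knockout effect differed between resting CD8 and resting CD4 cells, by the interaction term of edgeR, for 8 genes. All values are the effect in CD8 minus that in CD4 cells on the log2 scale. Mki67, a proliferation gene, differed by -6.15 (adjusted p 0.0011): its UMIs in CD8 cells were 7, 47, 4 and 1 in WT 1, WT 2, knockout 1 and knockout 2, and 93.6% of those in WT 2 were in 3 cells. Retnla, a gene of alveolar macrophages and other myeloid cells, differed by -12.11, with 867 UMIs in WT 1, of which 576 were in 1 cell. Cbr2 differed by 5.93, and all 37 of its UMIs in knockout 1 were in 1 cell. Ecm1 differed by -2.11, with 47 of the 51 UMIs of WT 2 in 1 cell. S100a4 differed by -0.82, and its UMIs fell from 117, 148, 75 and 56 to 21, 6, 5 and 9 without possible doublets.

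Dusp1, a phosphatase induced by stress and dissociation, differed by 0.92 (edgeR adjusted p 0.0011). It was at 145, 177, 198 and 185 CPM in CD8 cells and at 208, 240, 121 and 170 in CD4 cells. Without possible doublets it was at 61.5 to 75.1 in CD8 cells. Rps20 differed by 0.16 and the gene model Gm42418 by -0.39.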

How the results depend on the processing

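Knockout against WT (3 higher, 23 lower) gave 27 and 73 genes with no filter on low counts, 1 higher with at least 10 counts in every library, 5 higher without possible doublets, 5 higher with Cd8a required, and 0 and 0 with a mitochondrial limit of 5%, which leaves 14 to 28 cells per library (edgeR, 184 genes at an unadjusted p under 0.05). DESeq2 called 2 higher and 18 lower, and gave no adjusted p for 7930 of the 8348 genes. With the replicate block, although the libraries share only a number, 7 were higher and 12 lower. The length correction gave 0 and 11 (567 unadjusted). Without possible doublets or precursor cells 6 were higher. Leaving out 1 library gave 0 to 36 higher, 0 without WT 1 (481 unadjusted) and 36 without knockout 2, and 24 to 61 lower. With possible doublets also removed, 7 and 45 were called without WT 1, 26 and 66 without WT 2, 6 higher without knockout 1 and 42 lower without knockout 2.

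The difference of effects (3 higher, 5 lower) gave 7 and 8 with no filter, 2 lower with at least 10 counts, 0 and 0 with DESeq2, 6 higher without possible doublets, 1 and 3 at the 5% limit, 0 and 1 without possible doublets or precursor cells, and 1 to 24 higher and 1 to 15 lower without 1 library. Ecm1 turned to 1.11 without possible doublets and to 1.24 without precursor cells too. CD8 against CD4 (544 higher, 594 lower) gave 152 and 185 with DESeq2, 78 and 65 at the 5% limit and 284 and 307 with no library block. The share difference, knockout minus WT, was -0.64 percentage points, 0.53 at the 5% limit and -1.56 to 0.275 without 1 library. The cause was not tested, except that the 5% limit leaves few cells. Of the named genes' values under alternatives, direction and side of the threshold were kept by 219 for the knockout effect, while 53 no longer passed and 11 newly passed. For the difference of effects 68 were kept, 28 no longer passed, 2 reversed and 1 moved. For CD8 against CD4, the genes ranked by fold were chosen past the threshold and with the same sign in all 4 libraries. Of their values 325 were kept and 1, that of Ccr9, no longer passed. Genes named from lists are not in that count, among them Man1a and Syne1, which DESeq2 did not call.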
